A study of Mus musculus with 20 samples.

Results

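Esrrb, Tfcp2l1, Tbx3 and Nr5a2 encode transcription factors of the naive pluripotency network of mouse embryonic stem (ES) cells. Their accessible chromatin was described from a merged ATAC-seq peak list by taking every listed peak that overlapped 1 of the 4 genes (GENCODE M21, genome build GRCm38) or lay within 50 kb of it. This rule gave 86 of the 102373 listed peaks: 29 at Esrrb, 14 at Tfcp2l1, 21 at Tbx3 and 22 at Nr5a2. No measured value entered the choice of the genes or the rule, but the genes were proposed with earlier results of these data known.

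ATAC-seq, in which the transposase Tn5 inserts adapters into open DNA, was performed in ZHBTc4 mouse ES cells grown in serum with LIF, CHIR99021 and PD184352. In this line doxycycline (dox) switches off Pou5f1, which encodes OCT4, and all groups carried the YPet-MD reporter and a lentiviral SNAP-tagged OCT4 expressed from the PGK promoter. The OCT4 was fused either to a mitotic degron (SNAP-MD-OCT4), which removes it as cells leave mitosis, or to a mutated degron (SNAP-MD*-OCT4), which leaves it in place. Of the 20 libraries, in 10 groups of 2 replicates, 16 came from cells sorted by cell cycle phase (early G1, late G1, S, or late S/G2) after 40 h in dox, and 4 from untreated, unsorted cells. The list merges the peaks of the 16 dox-treated libraries and holds only their coordinates, with no value per library. A region open in 1 of these libraries therefore counts like a region open in all of them, depth is unknown, no replicate error can be given, and MD-OCT4 could not be compared with MD*-OCT4 at these genes. The absence of a listed peak is not a measurement of closed chromatin, and it was not established whether the list holds every merged peak.

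In naive ES cells these factors work beside OCT4, SOX2 and NANOG and sustain self-renewal under LIF and the inhibitors in the medium. Esrrb, an orphan nuclear receptor, is a known target of the GSK3 and TCF7L1 branch, Tfcp2l1, a factor of the grainyhead/CP2 family, is a target of LIF and STAT3, and Tbx3, a T-box factor, promotes naive gene expression. Nr5a2, also called LRH-1, is a nuclear receptor that binds DNA as a monomer, as ESRRB can, and it can sustain Pou5f1 expression. Each gene is thus both a source of a DNA-binding protein and a possible target of the others, so the motifs of all of them were searched in the peaks of all of them.

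The promoter sequences are shown because Esrrb and Nr5a2 each have several annotated transcription start sites (TSS) and their outermost TSS lay away from listed peaks, unlike that of Tfcp2l1. Each line gives the 250 bases before a TSS, 5′ to 3′ on the strand of the gene, from RefSeq GRCm38.p6. Capitals mark a motif match, and only the Tfcp2l1 promoter held 1, for KLF factors.
Esrrb outermost TSS, chr12:86360867-86361116, plus strand, no listed peak within 1 kb of the TSS: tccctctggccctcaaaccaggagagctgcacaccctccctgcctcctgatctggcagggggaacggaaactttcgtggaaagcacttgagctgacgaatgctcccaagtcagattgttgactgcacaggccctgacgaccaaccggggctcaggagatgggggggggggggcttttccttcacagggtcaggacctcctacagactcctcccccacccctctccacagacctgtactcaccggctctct
Esrrb inner TSS, chr12:86421394-86421643, plus strand, TSS inside a listed peak: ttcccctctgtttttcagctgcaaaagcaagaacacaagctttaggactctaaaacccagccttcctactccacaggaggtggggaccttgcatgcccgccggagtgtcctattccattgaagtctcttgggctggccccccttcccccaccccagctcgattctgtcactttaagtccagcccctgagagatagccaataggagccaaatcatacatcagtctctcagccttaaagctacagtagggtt
Nr5a2 outermost TSS, chr1:136960449-136960698, minus strand, no listed peak within 1 kb of the TSS: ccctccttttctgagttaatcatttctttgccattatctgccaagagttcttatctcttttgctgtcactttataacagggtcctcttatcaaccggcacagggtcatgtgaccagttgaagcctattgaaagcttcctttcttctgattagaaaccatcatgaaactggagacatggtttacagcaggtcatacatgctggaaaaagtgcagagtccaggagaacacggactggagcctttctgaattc
Nr5a2 inner TSS, chr1:136953631-136953880, minus strand, TSS inside a listed peak: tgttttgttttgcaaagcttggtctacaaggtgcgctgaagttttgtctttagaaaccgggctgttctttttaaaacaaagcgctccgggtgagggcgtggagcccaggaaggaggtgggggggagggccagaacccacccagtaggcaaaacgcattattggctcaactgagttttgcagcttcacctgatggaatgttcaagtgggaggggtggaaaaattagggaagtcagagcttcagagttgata
Tfcp2l1 TSS, chr1:118627695-118627944, plus strand, TSS inside a listed peak: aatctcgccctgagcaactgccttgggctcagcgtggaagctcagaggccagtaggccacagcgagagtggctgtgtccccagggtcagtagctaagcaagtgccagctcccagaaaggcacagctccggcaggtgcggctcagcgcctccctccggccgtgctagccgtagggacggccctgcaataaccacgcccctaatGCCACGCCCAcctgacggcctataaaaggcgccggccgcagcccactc

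Within these 250 bases, base composition did not separate the 5 promoters by the presence of a peak. The GC content was 60.8% at the outermost and 52.0% at the inner Esrrb TSS, whereas at Nr5a2 it was 43.2% at the outermost and 49.6% at the inner TSS. The outermost and inner promoters held 6 and 3 CpG at Esrrb and 2 and 6 CpG at Nr5a2. Tfcp2l1 had the highest values of the 5, with 65.2% GC and 16 CpG. The listed peaks reach beyond these stretches. Whole peaks had 61.7% GC at the inner Esrrb TSS, 50.4% at the inner Nr5a2 TSS and 59.2% at Tfcp2l1. The medians over the 32851 promoters of the RefSeq table were 52.4% and 6 CpG. KLF matches occurred in 6.57% of those promoters, so a single match among 5 promoters is a description of that sequence only.

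The matches to the ESRRB motif (TCAAGGTCA) are shown because most of those in peaks lay at its own gene, which was seen after the search. Over whole peaks there were 4 matches in 3 Esrrb peaks and 1 in a Nr5a2 peak. Each line gives the match in capitals with 20 bases on each side, read on the strand of the motif.
Esrrb +25.0 kb, chr12:86386063-86386111, minus strand: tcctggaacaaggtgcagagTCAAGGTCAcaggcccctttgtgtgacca
Esrrb +140.9 kb, first match, chr12:86501697-86501745, minus strand: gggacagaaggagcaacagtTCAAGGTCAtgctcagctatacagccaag
Esrrb +140.9 kb, second match, chr12:86502039-86502087, plus strand: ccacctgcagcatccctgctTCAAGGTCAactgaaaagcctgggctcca
Esrrb +143.3 kb, chr12:86504499-86504547, plus strand: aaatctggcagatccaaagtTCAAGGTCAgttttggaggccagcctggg
Nr5a2 −19.6 kb, chr1:136979865-136979913, plus strand: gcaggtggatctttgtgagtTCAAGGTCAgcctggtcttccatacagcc

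The match at +25.0 kb of Esrrb lay 1 bp from the centre of its peak and, like the second match at +140.9 kb, in sequence that the assembly does not mark as repeat. The other 3 matches, including that of Nr5a2, lay entirely in soft-masked bases, which the assembly marks as repeat or low-complexity sequence.

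The next 5 regions are the central 300 bp of 1 peak outside promoters at each gene and of the Nr5a2 peak with the composite OCT4::SOX2 motif. The former were those with the most kinds of motif out of 11, and ties went to the peak nearest to the outermost TSS. Esrrb +25.0 kb held 3 kinds, with no tie, but 1 of them, AAGGTCA, is part of its ESRRB match. Counted without it, the peak held 2 kinds, as did those at +66.8 and +122.5 kb of Esrrb. At Tbx3 2 peaks held 2 kinds, and at Tfcp2l1 and Nr5a2 7 peaks each held 1 kind, so those printed are examples. All are written on the plus strand of GRCm38.p6 with motif matches in capitals.
Esrrb +25.0 kb, SOX then ESRRB, chr12:86385937-86386236: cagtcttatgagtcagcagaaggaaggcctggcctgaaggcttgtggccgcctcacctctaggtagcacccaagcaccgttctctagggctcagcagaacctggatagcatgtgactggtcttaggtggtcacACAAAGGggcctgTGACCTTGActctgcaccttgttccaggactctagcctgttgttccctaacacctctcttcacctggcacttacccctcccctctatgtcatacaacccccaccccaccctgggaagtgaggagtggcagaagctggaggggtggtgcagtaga
Tfcp2l1 +5.9 kb, AAGGTCA on the minus strand, chr1:118633705-118634004: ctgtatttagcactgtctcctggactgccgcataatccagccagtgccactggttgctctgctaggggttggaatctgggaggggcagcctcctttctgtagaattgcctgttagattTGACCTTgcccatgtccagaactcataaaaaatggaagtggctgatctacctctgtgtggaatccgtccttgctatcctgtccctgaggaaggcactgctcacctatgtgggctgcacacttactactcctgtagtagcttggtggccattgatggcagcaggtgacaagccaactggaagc
Tbx3 +42.4 kb, CTCF then AAGGTCA, chr5:119712909-119713208: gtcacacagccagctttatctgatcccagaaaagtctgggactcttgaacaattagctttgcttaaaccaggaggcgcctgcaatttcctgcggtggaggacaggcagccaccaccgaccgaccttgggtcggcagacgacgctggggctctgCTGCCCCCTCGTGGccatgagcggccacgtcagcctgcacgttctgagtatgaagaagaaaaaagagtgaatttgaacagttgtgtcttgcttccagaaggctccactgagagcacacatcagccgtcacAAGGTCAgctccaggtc
Nr5a2 +2.7 kb, AAGGTCA at 2 places, chr1:136957613-136957912: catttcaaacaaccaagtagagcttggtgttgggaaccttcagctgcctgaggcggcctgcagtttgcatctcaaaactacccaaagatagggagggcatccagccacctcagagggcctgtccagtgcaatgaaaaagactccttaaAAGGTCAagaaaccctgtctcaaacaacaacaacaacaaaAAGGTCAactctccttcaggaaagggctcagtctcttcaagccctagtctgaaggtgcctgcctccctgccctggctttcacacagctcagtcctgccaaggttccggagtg
Nr5a2 +19.6 kb, OCT4::SOX2 then SOX, chr1:136940691-136940990: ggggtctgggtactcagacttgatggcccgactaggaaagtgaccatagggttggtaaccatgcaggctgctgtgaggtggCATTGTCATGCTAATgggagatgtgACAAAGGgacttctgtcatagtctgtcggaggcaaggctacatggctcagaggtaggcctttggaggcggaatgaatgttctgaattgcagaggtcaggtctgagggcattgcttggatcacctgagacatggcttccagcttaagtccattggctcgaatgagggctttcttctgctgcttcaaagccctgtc

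At Esrrb +25.0 kb the SOX and ESRRB matches were neighbours, starting at bases 134 and 147 of the window. AAGGTCA is the core that nuclear receptors recognise, and the ESRRB motif contains it. It started at base 119 of the Tfcp2l1 window (read as TGACCTT), at base 284 of the Tbx3 window, behind a CTCF match at base 154, and at bases 149 and 189 of the Nr5a2 window. The last of these windows belongs to the 244 bp peak that was the nearest to the outermost Nr5a2 TSS. At Nr5a2 +19.6 kb the composite match started at base 82 and differed from the 15-base consensus by T4A and A9G, counted from 1 at the 5′ end of the motif (the consensus base first), and a SOX match started at base 107. That peak, chr1:136940710-136940970, was centred in exon 5 of Nr5a2 and lay 127 bp from the TSS of a transcript with a retained intron.

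All 4 genes had a listed peak at a promoter, defined as at most 1 kb from any annotated TSS of the gene. This does not set them apart, since 70.4% of the 21938 protein-coding genes did so. Over single TSS, 14 of the 18 annotated TSS of the 4 genes had such a peak, beside 60% of all TSS of protein-coding genes. With protein-coding transcripts alone, 10 of 13 TSS had one. The 60% covers TSS of all transcript types, so it is not the background of this count. Where the open TSS lay differed between the genes. Tfcp2l1 and Tbx3 had a peak at their outermost TSS, and Esrrb and Nr5a2 had none there. Among protein-coding genes with a promoter peak, 6.18% lacked one at the outermost TSS, and 2 of the 4 members did. That share includes genes with a single TSS, which cannot lack it. Esrrb and Nr5a2 had 5 and 6 annotated TSS, and the comparison was not matched for TSS number.

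**Figure D1:**
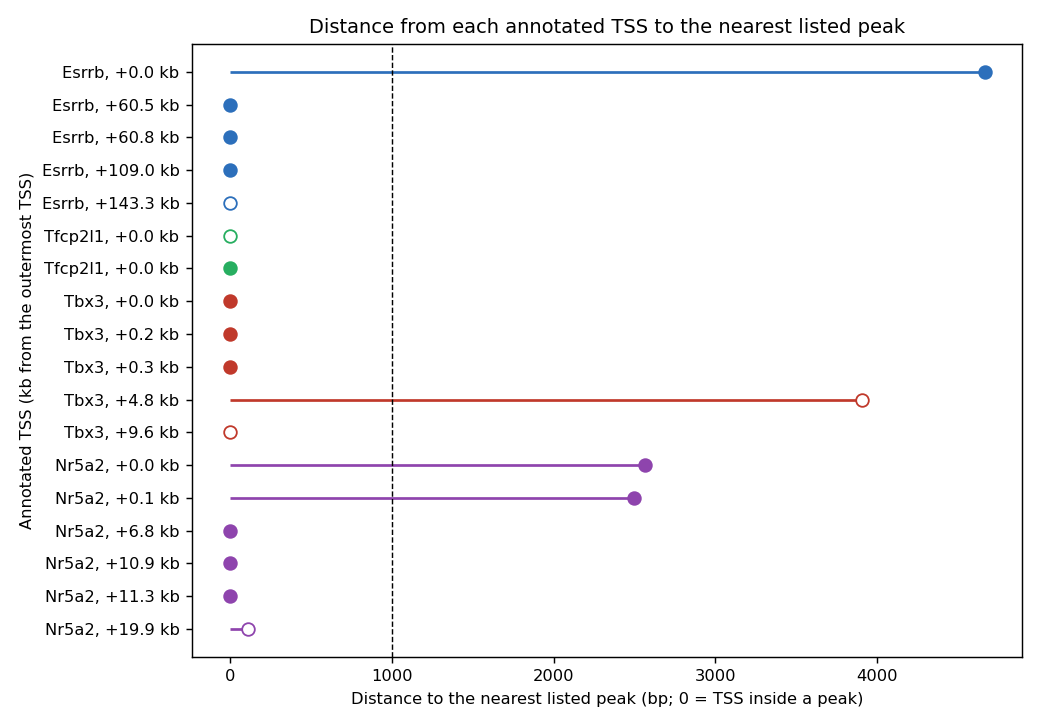
Distance in bp (horizontal axis) from each of the 18 annotated TSS of the 4 genes (vertical axis, named by distance from the outermost TSS) to the nearest listed peak. Filled points are TSS of protein-coding transcripts, open points TSS of other transcripts, and the dashed line marks 1000 bp. The outermost TSS of Esrrb lay 4663 bp and that of Nr5a2 2564 bp from a peak, while 14 TSS lay within 1000 bp.

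Esrrb (ENSMUSG00000021255, chr12:86361117-86521628, plus strand, 160512 bp) had its outermost TSS 4663 bp from the nearest listed peak, which was only 159 bp wide. The TSS at 86421644 and 86421883, 60.5 and 60.8 kb further in, lay inside the widest Esrrb peak, chr12:86421453-86422855, of 1403 bp. The remaining protein-coding TSS, at 86470117 and +109.0 kb, lay inside a peak of 980 bp (chr12:86469784-86470763). A narrow peak of 149 bp (chr12:86470968-86471116) followed 204 bp behind it, and its central window held the only OCT match (ATGCAAAT) in the 86 peaks. The fourth promoter peak (chr12:86504112-86504643, 532 bp) lay over the TSS of a processed transcript in intron 3, at +143.3 kb, and held 1 of the ESRRB matches printed above.

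Nr5a2 (ENSMUSG00000026398, chr1:136842571-136960448, minus strand, 117878 bp) showed the same arrangement over a shorter distance. Its outermost TSS and another 68 bp inside it lay 2564 and 2496 bp from the nearest listed peak, of 244 bp. The protein-coding TSS at 136953630, at +6.8 kb, lay inside a peak of 1487 bp (chr1:136952728-136954214), the widest of the 86. The TSS at 136949562 and 136949173 shared a peak of 708 bp (chr1:136948994-136949701). The last TSS, at +19.9 kb and of a transcript with a retained intron, lay between a peak of 261 bp, which held the OCT4::SOX2 match, and a peak of 460 bp (chr1:136940011-136940470), 127 and 113 bp away.

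Tfcp2l1 (ENSMUSG00000026380, chr1:118627945-118685168, plus strand, 57224 bp) had both of its TSS, 1 bp apart, inside a single peak of 1145 bp (chr1:118627582-118628726). It was the only promoter peak of the gene, and its KLF match lay in the printed promoter. Tbx3 (ENSMUSG00000018604, chr5:119670669-119684724, plus strand, 14056 bp) had its first 3 TSS inside a peak of 1443 bp (chr5:119670101-119671543), which also covered the start of the antisense gene Tbx3os1. The accessibility of the 2 promoters cannot be told apart in this peak. A second peak of 1142 bp (chr5:119679909-119681050) was centred in exon 6 of Tbx3, over the TSS of a processed transcript at +9.6 kb. The TSS of a retained-intron transcript at +4.8 kb was 3902 bp from a listed peak.

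Promoter peaks had the largest median width, with overlapping ranges. The 11 promoter peaks had a median width of 980 bp (149 to 1487), the 42 gene body peaks 312 bp (139 to 1218) and the 33 flank peaks 373 bp (147 to 1084). At each of the 4 genes the widest peak was a promoter peak. A merged width joins the peaks of up to 16 libraries, so it is not the width in any single library.

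**Figure D2:**
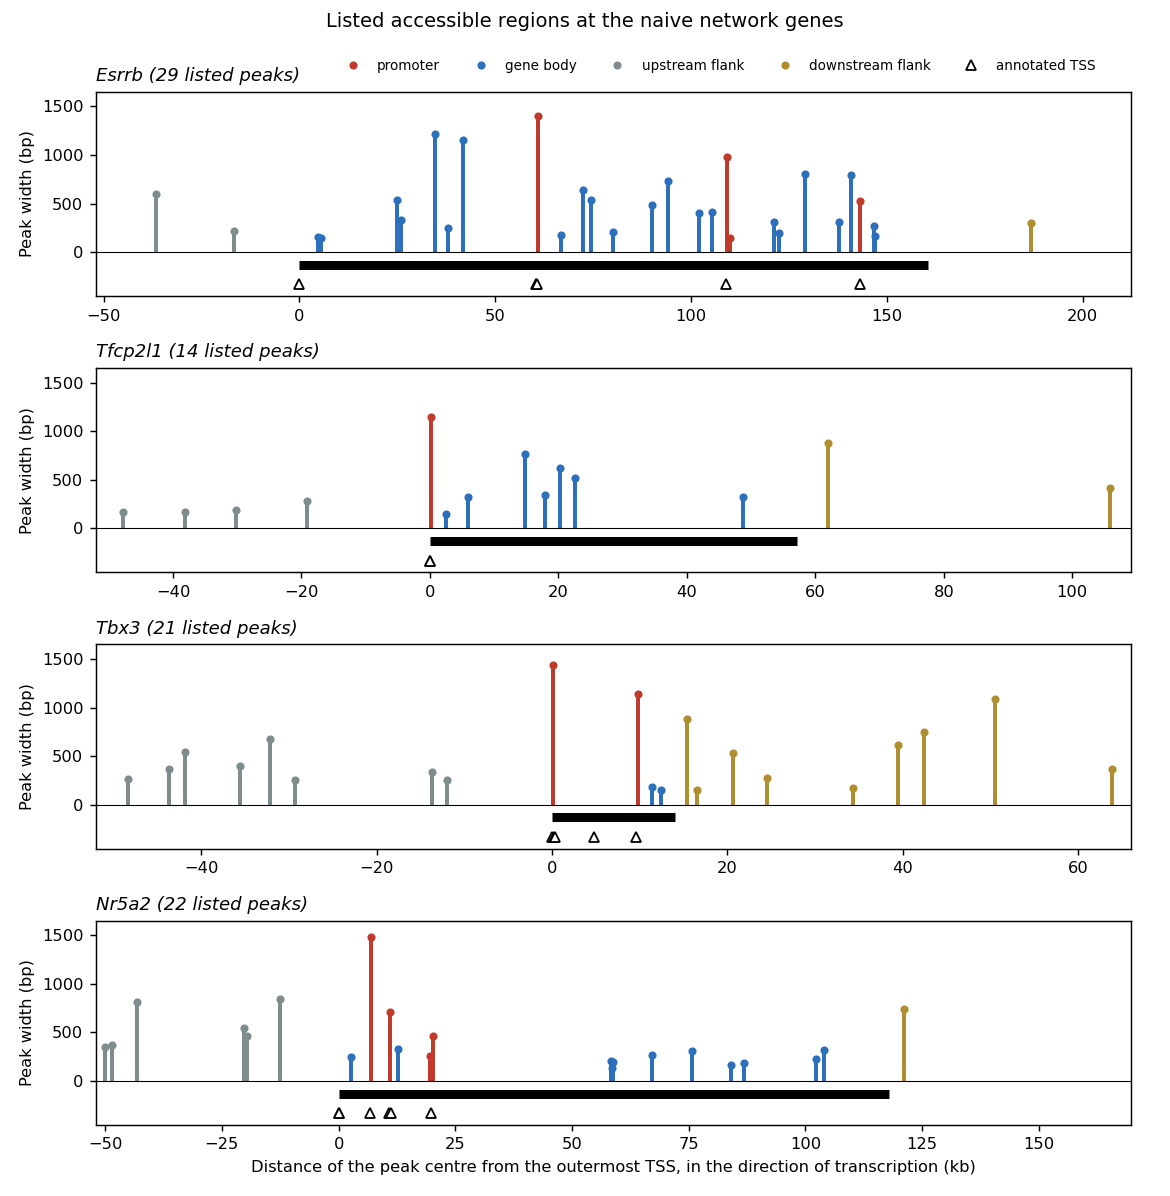
Listed peaks at Esrrb, Tfcp2l1, Tbx3 and Nr5a2, placed by the distance of the peak centre from the outermost TSS in kb along the direction of transcription (horizontal axis), with height giving the peak width in bp (vertical axis) and colour the class. The black bar is the gene and triangles are annotated TSS. The widest peak of Esrrb stands 61.0 kb inside the gene and that of Nr5a2 7.0 kb inside, while those of Tfcp2l1 and Tbx3 stand at the outermost TSS.

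The genes differed in whether the peaks lay within or around them. At Esrrb, 26 of 29 peaks lay in the gene or at its promoters and 3 in the flanks, which is 1.62 peaks per 10 kb of gene and 0.3 per 10 kb of flank. Tbx3 was the opposite in numbers, with 17 of its 21 peaks in the flanks, since the gene spans only 14.1 kb, although its density was still 2.85 per 10 kb of gene and 1.7 per 10 kb of flank. Tfcp2l1 had 1.40 and 0.6 and Nr5a2 had 1.27 and 0.7 peaks per 10 kb of gene and flank. With promoter peaks counted, the gene was denser than the flanks at all 4. Values per gene count the promoter peaks, which at Tbx3 were 2 beside 2 gene body peaks. Without its promoter peaks, Tbx3 would have a lower density in the gene (2 peaks in 14.1 kb) than in the flanks. The same comparison over other genes was not made, so this is not shown to be particular to the 4. These densities are values of 1 list and carry no replicate error.

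Within Esrrb, 7 peaks lay between the outermost TSS and the inner promoter, at +4.7 to +41.7 kb. They included the widest gene body peaks of the 4 genes, of 1218 bp (chr12:86395025-86396242, +34.5 kb) and 1158 bp (chr12:86402225-86403382, +41.7 kb). From the latter to the inner promoter no peak was listed over 18.1 kb. Numbered by the principal (APPRIS) transcript, which starts at the inner promoter, intron 1 (48181 bp) held 9 peak centres, intron 2 held 3, intron 3 held 4 and intron 5 held 2. The third widest gene body peak, of 802 bp (chr12:86489841-86490642), lay in intron 3, as did the peak of 798 bp at +140.9 kb that held a pair of ESRRB matches. From the last peak in the gene 39.5 kb passed without a listed peak, across the 3′ end, before 1 of 304 bp (chr12:86547800-86548103). The widest flank peak, of 594 bp (chr12:86324231-86324824), lay 36.6 kb before the outermost TSS.

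Tfcp2l1 peaks gathered in intron 2. This intron of 19907 bp held 5 of the 7 gene body peaks, among them the 3 widest, of 762 bp (chr1:118642430-118643191), 621 bp (chr1:118647960-118648580) and 523 bp (chr1:118650337-118650859). The last of these lay within 1 kb of the annotated start of the pseudogene Gm28882. From there 25.7 kb passed without a listed peak, and introns 3 to 13 held none. In the flanks, the widest peaks were of 875 bp at +62.0 kb (chr1:118689463-118690337) and 413 bp at +105.8 kb (chr1:118733581-118733993), both behind the gene. The 4 upstream flank peaks were narrow, from 170 to 288 bp, and all were centred in the neighbouring gene Clasp1. For 1 of these, at −47.7 kb, the nearest protein-coding TSS was that of Clasp1, the single exception among the 86 peaks.

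Tbx3 held few peaks inside the gene besides the promoters, of 185 bp (chr5:119682020-119682204, intron 6) and 155 bp (chr5:119682985-119683139, exon 7). Around it, 8 peaks upstream and 9 downstream spread over both flanks. The widest were of 1084 bp at +50.5 kb (chr5:119720592-119721675) and 885 bp at +15.4 kb (chr5:119685610-119686494). Its flanks overlap non-coding genes. All 8 upstream peaks were centred in Tbx3os1, and 3 flank peaks lay within 1 kb of a TSS of Tbx3os1, Gm16063 or Tbx3os2. No other protein-coding gene lay in the window.

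Nr5a2 peaks were grouped near the 5′ end of the gene and again far inside it. Between the peaks at +20.2 kb and +58.4 kb, in intron 5 (49606 bp), 37.9 kb held no listed peak. The 9 gene body peaks beyond this gap were narrow, from 139 to 321 bp, and 3 of them, at +58.4 to +58.8 kb, were separated by 28 and 38 bp only. The 3 widest gene body peaks were of 335 bp (chr1:136947485-136947819), 321 bp (chr1:136856259-136856579) and 309 bp (chr1:136884598-136884906). Wider peaks lay upstream, of 842 bp at −12.6 kb (chr1:136972591-136973432) and 815 bp at −43.2 kb (chr1:137003272-137004086). The single downstream flank peak, at +121.2 kb, was 746 bp wide. Esrrb and Nr5a2, the nuclear receptors among the 4, both had 4 promoter peaks, and Nr5a2 had 11 gene body peaks against 22 at Esrrb.

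By density over the gene with its 50 kb flanks, the order was Tbx3 with 1.84 peaks per 10 kb, Esrrb with 1.11, Nr5a2 with 1.01 and Tfcp2l1 with 0.890. The median over all protein-coding genes was 0.697, with an interquartile range from 0.287 to 1.15 and a 95th percentile of 1.72. Tbx3 stood at the 97.0th percentile, above that bound, whereas Esrrb (73.2nd), Nr5a2 (67.7th) and Tfcp2l1 (61.2nd) lay within the interquartile range. Among genes of 0.5 to 2 times the length of the member the percentiles were 95.9 for Tbx3, 87.3 for Esrrb, 79.7 for Nr5a2 and 63.1 for Tfcp2l1. Listed peaks covered 9.52% of the Tbx3 window, 5.54% at Esrrb, 4.30% at Nr5a2 and 4.01% at Tfcp2l1. The median gene had 3.98% covered. How far neighbouring values in this order differ beyond error could not be tested.

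**Figure D3:**
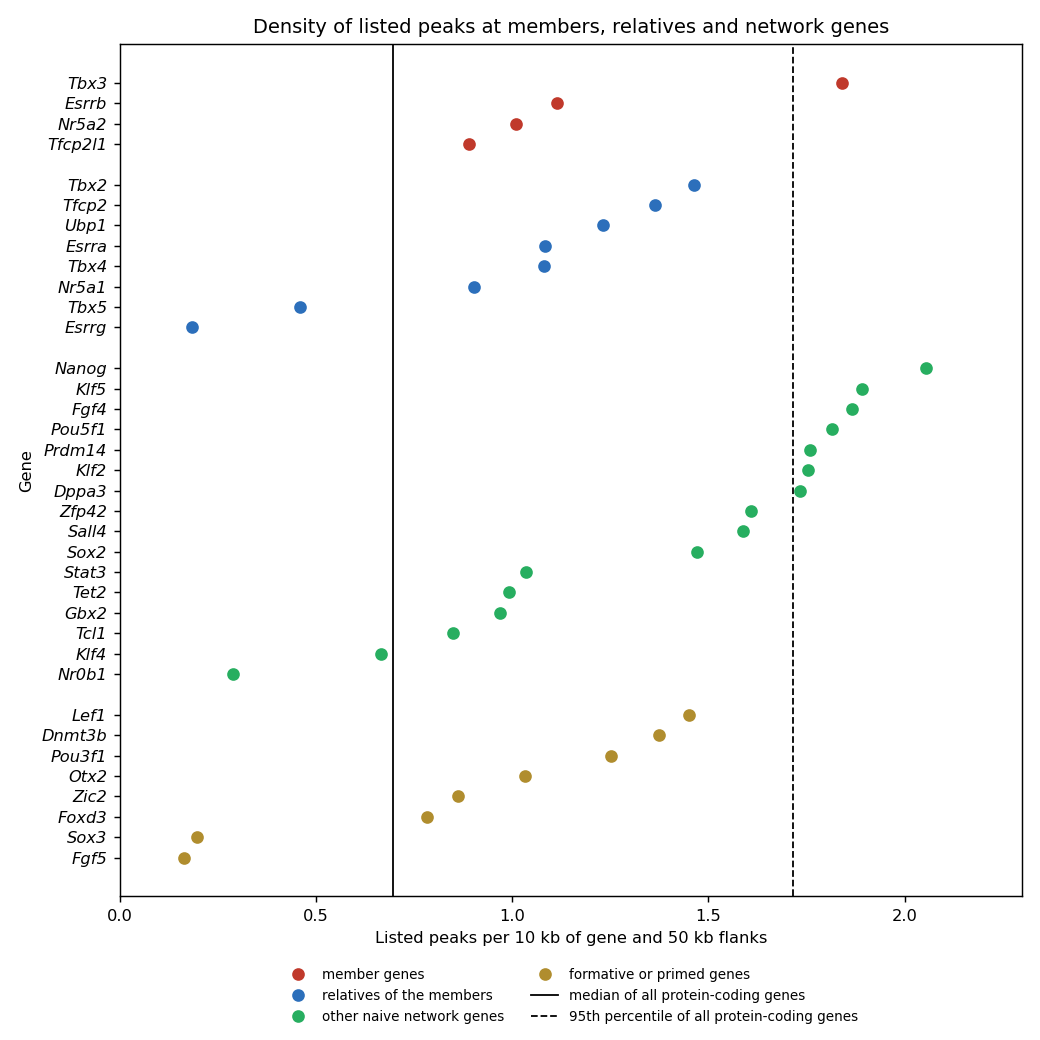
Listed peaks per 10 kb of gene and 50 kb flanks (horizontal axis) for the 4 members, 8 relatives of their families, 16 other naive network genes and 8 formative or primed genes (vertical axis), 1 point per gene. The solid line is the median (0.697) and the dashed line the 95th percentile (1.72) of all protein-coding genes. Tbx3 lies beyond the dashed line and the other 3 members between the lines.

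Against their relatives in the same families, the members did not stand together at 1 end. Esrrb (1.11) stood beside 1.08 at Esrra and 0.184 at Esrrg, the other receptors of its family. Relatives were not matched for gene length, which was 160512 bp at Esrrb, 10837 bp at Esrra and 606095 bp at Esrrg. Tfcp2l1 (0.890) was below both Tfcp2 (1.36) and Ubp1 (1.23). Tbx3 (1.84) was above Tbx2 (1.46), Tbx4 (1.08) and Tbx5 (0.459), T-box genes with roles in limb and heart development. Nr5a2 (1.01) was above Nr5a1 (0.902), the receptor of steroidogenic tissues. All 8 relatives had a promoter peak, and only Nr5a1 among them lacked one at the outermost TSS.

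Other genes of the naive network had a median of 1.60 peaks per 10 kb (0.288 to 2.05, 16 genes), beside 1.06 for the 4 members and 0.948 (0.163 to 1.45, 8 genes) for genes of formative or primed pluripotency. These groups were not matched for gene length. The 16 naive genes span 2057 bp (Sox2) to 81461 bp (Tet2), and the members 14056 bp (Tbx3) to 160512 bp (Esrrb). Nanog had the highest value, 2.05, and Nr0b1 the lowest, 0.288. Of the 16 naive genes 15 had a promoter peak, the exception being Nanog, whose nearest listed peak was 1402 bp from a TSS. None of these 15 lacked a peak at the outermost TSS, unlike Esrrb and Nr5a2. All 4 members lay within the range of the 16 naive genes. Tbx3 (1.84) stood near Pou5f1 (1.81), Klf5 (1.89) and Fgf4 (1.87). Esrrb (1.11), Nr5a2 (1.01) and Tfcp2l1 (0.890) stood nearer to Stat3 (1.04), Tet2 (0.992), Gbx2 (0.969) and Tcl1 (0.849).

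Motif matches were counted in the 300 bp centred on each peak, on both strands, for 11 motifs. Of the 86 peaks 43 held none, and since the share over all listed peaks is not given, this count only describes them. Shares are set beside those of all 102373 listed peaks, with 95% Wilson intervals that take peaks as independent and hold counting error alone. The search was for consensus letters, and a match does not show binding.

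In the central 300 bp each motif of the members themselves had a larger share in member peaks than in all peaks, though within counting error. The ESRRB motif was found in 3 peaks, all at Esrrb (3.49%, interval 1.19 to 9.76), beside 1.93% of all peaks. Its shorter core AAGGTCA, which nuclear receptors including NR5A2 recognise and which is contained in the ESRRB motif, was found in 13 peaks (15.1%, 9.05 to 24.2), beside 9.5%. These were 5 at Esrrb, 5 at Tbx3, 2 at Nr5a2 and 1 at Tfcp2l1. The TFCP2L1 motif, a pair of CCAG or CCGG boxes 6 bases apart, was found in 8 peaks (9.30%, 4.79 to 17.3), beside 7.98%. Only 1 of these was at Tfcp2l1. The T-box motif AGGTGTGA was found in 2 peaks (2.33%, 0.640 to 8.09), beside 1.54%, and neither was at Tbx3. One of the 2, at the narrow promoter peak of Esrrb, lay outside the peak itself. So did the counted AAGGTCA match at Tbx3 +16.6 kb, and below the KLF match at Tbx3 +11.4 kb and the SOX match at Tfcp2l1 −38.1 kb. All 4 intervals included the share of all peaks.

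Of the motifs of OCT4 and its partners, the composite OCT4::SOX2 motif (15 bases, up to 2 mismatches) was found in 1 of the 86 peaks, the Nr5a2 peak printed above. This was 1.16% (0.206 to 6.30), beside 0.167% of all peaks, and rests on a single match. The OCT motif ATGCAAAT, contained in the composite one, was found in 1 peak, beside 1.71% of all. SOX matches (CCATTGT or CCTTTGT) were found in 13 peaks (15.1%, 9.05 to 24.2), beside 15.2%, with 4 at Esrrb, 4 at Tfcp2l1, 3 at Nr5a2 and 2 at Tbx3.

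Among motifs of the factors downstream of LIF and of the inhibitors, KLF matches were found in 7 peaks (8.14%, 4.00 to 15.9), beside 5.85%, with 4 of the 7 at Esrrb. STAT3 (TTCCNGGAA) was found in 1 peak, at +121.1 kb of Esrrb, beside 1.28%, and in none at Tfcp2l1. TCF (ATCAAAG) was found in 1 peak, at +122.5 kb of Esrrb, beside 5.08%. CTCF, whose protein bounds chromatin loops, was the motif whose background lay above the interval, with 3 peaks (3.49%, 1.19 to 9.76), beside 10.6%. The 3 were 2 downstream of Tbx3 and 1 in Esrrb. Of the 11 motifs, 9 had the share of all peaks inside their interval, and the exceptions were CTCF and OCT4::SOX2. For OCT4::SOX2 this rests on 1 match, with a lower bound of 0.206% beside 0.167%, and is not read as a difference. The intervals were not adjusted for the 11 motifs.

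**Figure D4:**
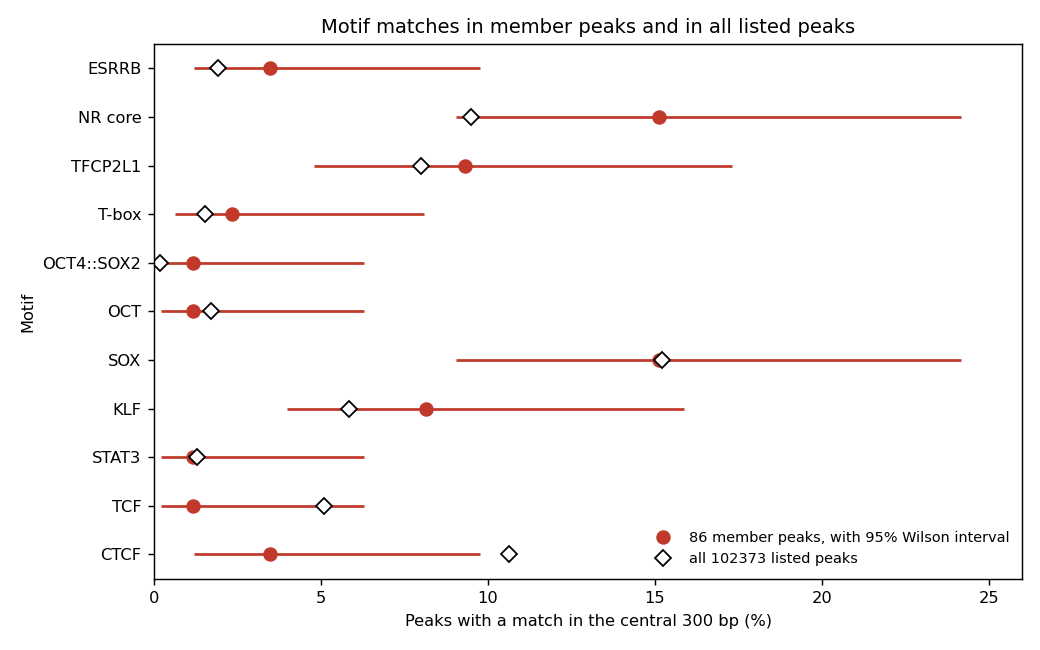
Share in % of peaks with a match in their central 300 bp (horizontal axis) for 11 motifs (vertical axis; NR core is AAGGTCA). Red points are the 86 member peaks with 95% Wilson intervals and open diamonds all 102373 listed peaks. The diamonds for CTCF (10.6%) and OCT4::SOX2 (0.167%) lie outside the intervals and the other 9 inside. That of OCT4::SOX2 lies just below an interval resting on 1 match.

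Within the windows, matches per length were compared between the listed peaks and the remaining sequence. At Esrrb the ESRRB motif occurred 15 times, 4 in 14433 bp of listed peaks (27.7 per 100 kb) and 11 in the other 246079 bp (4.47 per 100 kb). At Nr5a2 there were 3 matches, of which 1 lay in a peak, and at Tfcp2l1 (9 matches) and Tbx3 (4) none did. The core AAGGTCA was denser in peaks at each gene, with 62.4 per 100 kb in peaks and 22.8 outside at Esrrb, 64.0 and 15.3 at Nr5a2, 46.0 and 20.3 at Tbx3, and 47.5 and 26.5 at Tfcp2l1. The TFCP2L1 motif was also denser in peaks at all 4 genes, with 47.5 and 15.9 per 100 kb at Tfcp2l1. So was the KLF motif, with 6 matches in peaks at Esrrb (41.6 and 3.66 per 100 kb). Nr5a2 (10.7 and 3.36), Tbx3 (9.21 and 6.78) and Tfcp2l1 (15.8 and 3.98) had 1 KLF match each in peaks. SOX matches were denser in peaks at Tfcp2l1 (110.9 and 37.1), with 7 matches in peaks. They were also denser at Nr5a2 (53.3 and 34.1) and slightly at Tbx3 (36.8 and 34.9), but not at Esrrb (27.7 and 30.1). Of 42 OCT matches in the 4 windows, 1 lay in a listed peak, while listed peaks covered from 4.01% (Tfcp2l1) to 9.52% (Tbx3) of a window. That match, at Esrrb, gave 6.93 per 100 kb in peaks beside 5.69 outside. These counts are small, and the same comparison was not made around other genes. Listed peaks differ in base composition from the sequence around them, and its part in these values was not tested.

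In composition the 86 peaks were close to the whole list, with a median GC content of 51.7% against 50.1%. Nr5a2 had the lowest median, 47.3%, and Tbx3 the highest, 53.8%, with Tfcp2l1 at 50.8% and Esrrb at 52.4%. Peaks with at least 50% soft-masked bases were 4 of 86 (4.65%), beside 11.3% of the list, and 1 of the 4 was the Nr5a2 peak at −19.6 kb. Peaks narrower than 300 bp made up 37.2% of the member peaks and 35.8% of the list. The median width was 405 bp at Esrrb, 373 bp at Tbx3, 337 bp at Tfcp2l1 and 328 bp at Nr5a2, beside 415 bp for all peaks.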

How the data were processed

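The authors aligned paired ATAC-seq reads to GRCm38 with STAR (2.6.1c), removed duplicates with Picard, called peaks with MACS (2.1.1.20160309) with its paired-end setting, and used BEDTools to merge those of all libraries treated with dox. They also removed peaks above a size limit, blacklisted peaks and peaks overlapping those of input samples. The widest listed peak, of 38218 bp, is above that limit, so the list was not filtered by size. Whether the other removals were applied to it was not established. The deposited peak list used here has 3 columns of coordinates and no count or signal, so from it depth and precision per sample are unknown and no test between groups was run. The planned limma fit of MD-OCT4 against MD*-OCT4 was not run for that reason. Members and lists were chosen with earlier results of these data known.

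TSS, exons and introns were taken from GENCODE M21 and sequences from RefSeq GRCm38.p6. A peak was promoter within 1000 bp of any TSS of the gene, otherwise gene body or flank (50 kb). Motifs were searched in the central 300 bp. Peaks named are all promoter peaks, the 3 widest gene body and 2 widest flank peaks of each gene, peaks with OCT4::SOX2, and per gene the non-promoter peak with the most kinds of motif (ties: nearest to the outermost TSS). The ESRRB matches and the other peaks named (by position, motif or width) were chosen after their values were seen. The RefSeq promoter table was matched for Esrrb, Tfcp2l1 and Nr5a2, and Tbx3 had no entry. Functions were tested on simulated data. The tools were Python 3.11.15, numpy 2.4.6, pandas 2.3.3 and matplotlib 3.10.9.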

Additional observations from a re-analysis of the deposited data

How the results depend on the processing

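No paired analysis was possible because single libraries have no values in the list, and the fits without a replicate block and without single replicates were not run. Of 86 alternative values, 58 were within 1.5 times the reported one, among them all 12 percentiles of density or covered share. A percentile cannot exceed 100, so this band could not flag a rise at Tbx3, Esrrb or Nr5a2. The alternative percentiles ran from 64.8 to 87.3 at Esrrb and from 53.4 to 79.7 at Nr5a2. They ran from 50.4 to 63.1 at Tfcp2l1 and from 90.8 to 95.9 at Tbx3. Peak counts moved with the window and the width: within 25 kb Tbx3 had 11 peaks, within 100 kb Tfcp2l1 had 22 and Tbx3 32, and with peaks of at least 300 bp only Esrrb had 19, Tfcp2l1 9, Tbx3 13 and Nr5a2 13. With the TSS at the 5′ end of the gene alone, promoter peaks were 0 at Esrrb, 0 at Nr5a2 and 1 at Tbx3, and with TSS of protein-coding transcripts alone (an alternative added after seeing the data) 1 at Tbx3 and 2 at Nr5a2. Searching whole peaks gave AAGGTCA in 20 member peaks (23.3%, beside 13.9% of all peaks) and TFCP2L1 in 14 (16.3%, beside 13.9%). The central 200 bp gave AAGGTCA in 8 (9.30%, beside 6.62%), TFCP2L1 in 3 (3.49%, beside 5.40%) and T-box in 1 (1.16%, beside 0.998%). OCT4::SOX2 with up to 3 mismatches was found in 4 peaks (4.65%, beside 1.34% of all peaks). Reversed motifs were found in member peaks about as often as, or more often than, the motif itself for T-box (2 against 2), AAGGTCA (9 against 13), TFCP2L1 (6 against 8), STAT3 (2 against 1) and TCF (2 against 1). They were found less often for ESRRB (1 against 3), OCT4::SOX2 (0 against 1), OCT (0 against 1), SOX (4 against 13), KLF (1 against 7) and CTCF (0 against 3). In member and all peaks, reversed shares were 2.33% and 1.57% for T-box and 10.5% and 6.04% for AAGGTCA. They were 6.98% and 4.30% for TFCP2L1, 2.33% and 0.649% for STAT3 and 2.33% and 3.10% for TCF. For ESRRB they were 1.16% and 0.381%, for SOX 4.65% and 9.40% and for KLF 1.16% and 0.737%. Reversed OCT4::SOX2, OCT and CTCF were in 0.0215%, 0.110% and 0.213% of all peaks. Depth limits every statement, since a weak region may be missing from the list.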
